A study of Canis lupus familiaris with 23 samples.

Results

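SLC1A3, solute carrier family 1 member 3, encodes a high-affinity transporter of glutamate and aspartate, also called EAAT1 or GLAST. Its expression was examined in canine osteosarcoma on the Affymetrix canine genome array. All probe sets whose platform annotation gave SLC1A3 as the single gene symbol were taken. There was 1 such probe set (1582385_at) among the 23836 probe sets tested, and SLC1A3 was 1 of the 6540 genes named on the array. Values are log2 expression values from robust multi-array averaging (RMA), as deposited, so that a difference of 1 is 2-fold. An RMA value orders the samples for 1 probe set but does not rank genes against each other.

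The study compared osteosarcoma with normal organs of the dog. The 23 samples were 2 canine osteosarcoma cell lines grown in culture, 15 primary osteosarcomas from pet dogs, and 6 normal samples from colony dogs kept for research, 2 each of kidney, liver and lymph node. The tumors came from definitive surgery before chemotherapy. No treatment or genetic alteration was applied, and no age or breed is used here. Tumors were pieces of frozen tissue and so held stroma, vessels and leukocytes beside tumor cells, whereas the cell lines held cultured cells only. The organ samples were separate biological replicates, per the study's methods, but none of the 3 organs is bone. Samples are called here by group and replicate number.

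SLC1A3 carries glutamate or aspartate into the cell together with sodium ions and protons while potassium leaves, and so depends on the sodium and potassium gradients that the sodium pump maintains. It is best known from astrocytes and Bergmann glia, where it clears glutamate released at synapses and where glutamine synthetase then turns glutamate into glutamine. In bone of the rat, GLAST was found in osteoblasts and osteocytes.

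Array-wide checks were made first. The control probe sets for the 5′ ends of actin and Gapdh were weak against those for the 3′ ends on 10 arrays, a sign of shortened RNA or cDNA. These were tumors 1, 4, 7, 8, 10, 12 and 14 and replicate 1 of kidney, liver and lymph node, and they are called arrays with low 5′ signal here. Labels fitted the tissues: the mean over 10 hepatocyte markers was highest in liver, that over 8 kidney epithelium markers in kidney, and that over 6 lymphocyte markers in lymph node. The osteoblast and osteocyte list had a mean level of 7.36 to 9.91 in the tumors, against 5.13 to 6.71 in the organ samples.

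SLC1A3 was high in most tumors and varied widely among them. Among the 8 tumors with full 5′ signal it was 10.1 in tumor 3, 8.72 in tumor 15, 8.49 in tumor 6, 8.47 in tumor 5, 8.21 in tumor 2, 7.03 in tumor 11, 6.33 in tumor 13 and 6.06 in tumor 9. Among the 7 tumors with low 5′ signal it was 9.70 in tumor 1, 8.56 in tumor 4, 7.80 in tumor 7, 6.42 in tumor 10, 6.33 in tumor 14, 6.01 in tumor 8 and 5.60 in tumor 12. Both classes therefore held tumors with high and with low values. The mean over the 15 tumors was 7.59 ± 1.43 (SD), the median was 7.80 and the span was 4.49 on the log2 scale, or 22.4-fold. Among all probe sets, 98.5% had a smaller SD over the tumors, the median SD being 0.262. Over the tumors, SLC1A3 and the 5′ index (how far actin and Gapdh signal at the 3′ end exceeded that at the 5′ end, on average) had r = -0.13 (permutation p = 0.634) and rho = -0.10 (permutation p = 0.726, both two-sided). Without the 2 tumors farthest from the median, r was -0.45.

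In the cell lines SLC1A3 was 3.90 in cell line 1 and 5.81 in cell line 2. Kidney had 6.40 in replicate 1 and 4.41 in replicate 2, liver 3.79 and 4.32, and lymph node 4.0 and 3.84. Kidney 1 was thus the only organ sample above any tumor, exceeding 5 of them (8, 9, 12, 13 and 14), and cell line 2 lay above tumor 12. Ordered by mean, the groups ran from the tumors through kidney (5.40 ± 1.41, SD, n = 2), the cell lines (4.86 ± 1.35, SD, n = 2) and liver (4.06 ± 0.376, SD, n = 2) to lymph node (3.92 ± 0.116, SD, n = 2). In the limma fit of the 5 groups, the 95% interval of tumors minus kidney was 0.18 to 4.19, wholly above no difference. The intervals of the other neighbouring pairs in that order took in no difference. After adjustment over all probe sets, no pair of neighbours passed the threshold of 0.01. The adjusted p was 0.183 for tumors against kidney, 0.830 for cell lines against kidney, 0.721 for cell lines against liver and 0.986 for lymph node against liver.

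**Figure D1:**
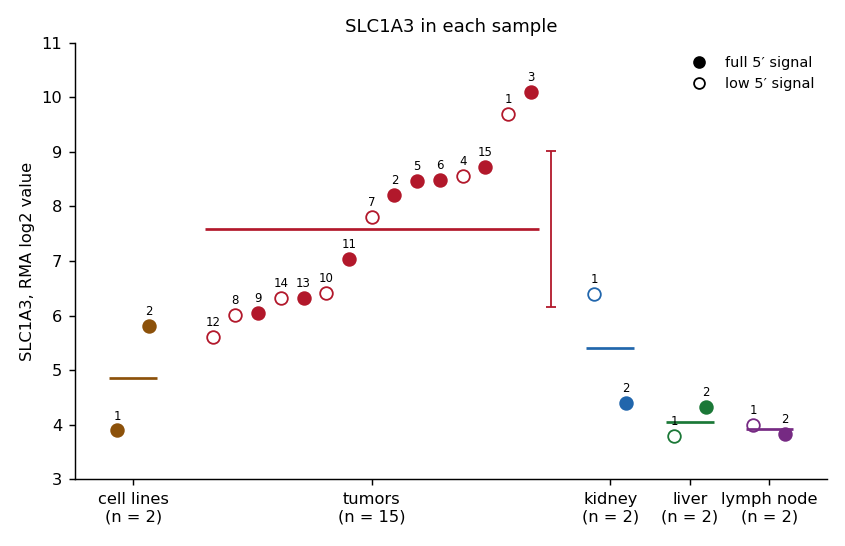
SLC1A3 RMA log2 value (vertical axis) in each of the 23 samples by group, with the replicate number above each point. Lines mark group means, the bar marks the SD of the 15 tumors, and tumors are drawn in order of their value. Open points are arrays with low 5′ signal. Tumors span 5.60 to 10.1, and all of them lie above both liver and both lymph node samples, while kidney 1 at 6.40 reaches into their range.

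Against liver, all 15 tumors were higher than both samples, which was true of 6.91% of all probe sets. The mean difference was 3.53 ± 0.96 on the log2 scale (SE, 95% interval 1.52 to 5.54), or 11.5-fold, with a limma adjusted p of 0.0149. Single tumors exceeded the liver mean by 1.55 (tumor 12) to 6.03 (tumor 3), with a median of 3.74. Of the 15 tumors, 8 were over 8-fold above it.

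Against lymph node, all 15 tumors were again higher than both samples, as were 3.52% of probe sets. The mean difference was 3.67 ± 0.96 (SE, 95% interval 1.66 to 5.67), or 12.7-fold, with a limma adjusted p of 0.0204. Single tumors exceeded the lymph node mean by 1.68 to 6.17, with a median of 3.88, and 9 of the 15 were over 8-fold above it. Neither difference passed the threshold of 0.01, which 9.28% of probe sets passed against liver and 4.24% against lymph node. At 0.05, the rate in the study's methods, both passed as higher, together with 6.09% of probe sets against liver and 2.32% against lymph node. Neither passed 0.05 when a sample of the organ was left out (against liver, 3.26 with adjusted p = 0.181 without liver 1 and 3.80 with 0.103 without liver 2; against lymph node, 3.75 with 0.160 without lymph node 1 and 3.58 with 0.236 without lymph node 2).

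Against kidney the picture was mixed. All 15 tumors exceeded kidney 2, but 10 exceeded kidney 1. The mean difference was 2.18 ± 0.96 (SE, 95% interval 0.18 to 4.19), or 4.55-fold, and the limma adjusted p was 0.183, in a comparison where 7.26% of probe sets passed 0.01. Tumor 12 lay 0.20 above the kidney mean and tumor 3 lay 4.69 above it, and 10 of the 15 tumors were over 2-fold above it. This difference rested on which kidney sample was used. It was 3.18 without kidney 1 (adjusted p = 0.222) and 1.19 without kidney 2 (adjusted p = 0.717).

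Kidney 1 was an array with low 5′ signal and kidney 2 was not, so the comparisons were repeated within each class. Tumors exceeded kidney by 3.52 ± 1.30 (SE) among full arrays and by 0.80 ± 1.40 among low arrays. They exceeded liver by 3.60 among full arrays and 3.41 among low arrays, and lymph node by 4.08 among full arrays and 3.20 among low arrays. Each organ then had 1 array a class, and none of these 6 differences passed 0.01 or 0.05. The tumors themselves averaged 7.92 ± 1.36 (SD, n = 8) with full 5′ signal and 7.20 ± 1.52 (SD, n = 7) with low 5′ signal. Another technical mark, a bacterial Dap control RNA, was bright in 5 tumors (2, 5, 6, 11 and 15). SLC1A3 was 7.03 to 8.72 in these, against 5.60 to 10.1 in the other 10 tumors. Without these 5 tumors the difference was 3.23 against liver (adjusted p = 0.0591) and 3.37 against lymph node (adjusted p = 0.0779), so that neither passed 0.05.

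The study picked this gene partly by its fold between tumors and normal tissues. Over the 6 organ samples used here, SLC1A3 averaged 7.59 in tumors and 4.46 ± 0.981 (SD, n = 6) in normal samples. This difference of 3.13 (8.73-fold) is a description and was not used as evidence. The differences of tumors from single organs come from these same arrays, so their p-values and shares are a description too. A mean over 8-fold higher in tumors was found for 0.487% of probe sets. Above the highest normal sample, kidney 1, lay 10 of the 15 tumors.

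In the fit of the 5 groups, which shares 1 spread over them, the organs did not differ detectably from each other. Kidney minus liver was 1.35 ± 1.28 (SE, adjusted p = 0.850), lymph node minus kidney was -1.48 ± 1.28 (adjusted p = 0.668) and lymph node minus liver was -0.14 ± 1.28 (adjusted p = 0.986, limma). The intervals were wide, with 2 samples an organ and a shared spread that took in the 15 tumors (SD 1.43). That of lymph node minus liver ran from -2.80 to 2.53, though the SD was 0.116 within lymph node and 0.376 within liver.

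Both cell lines were below the tumor mean, but not to the same extent. Cell line 1 at 3.90 lay below all 15 tumors, and cell line 2 at 5.81 lay between tumor 12 at 5.60 and tumor 8 at 6.01. The mean difference, cell lines minus tumors, was -2.73 ± 0.96 (SE, 95% interval -4.74 to -0.72), or 6.64-fold lower, with a limma adjusted p of 0.0619. It did not pass 0.01, which 6.27% of probe sets passed. It was -3.69 without cell line 2 (adjusted p = 0.108) and -1.77 without cell line 1 (adjusted p = 0.482). Both cell line arrays had full 5′ signal, and against the 8 tumors of that class alone the difference was -3.07 (adjusted p = 0.0618). In bulk samples, fewer cells of a type and less RNA per cell cannot be told apart.

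Markers of other cell types also differed between cell lines and tumors. Of 16 macrophage markers, 7 were lower in the cell lines and 0 higher, against 2.50% of all probe sets called lower, and their median difference was -2.68, against -0.02 over all probe sets. The mean level of these markers was 5.05 and 5.14 in the cell lines and 6.73 to 8.87 in the tumors. Of 6 endothelial markers, 3 were lower. Of 11 osteoblast and osteocyte markers 1 was lower and 0 higher, with a median difference of -1.50 and a mean level of 6.32 to 7.19 in the cell lines and 7.36 to 9.91 in the tumors. Of 8 osteoclast markers 1 was lower and 0 higher, with a median difference of -1.13 and a mean level of 5.27 to 6.17 in the cell lines and 5.81 to 8.88 in the tumors. The 7 measured glial markers had a mean level of 4.98 to 5.08 in the cell lines, 4.86 to 5.67 in the tumors, 5.61 to 5.76 in kidney, 5.57 to 5.58 in liver and 4.95 to 5.31 in lymph node, so the tumor range took in both cell lines and overlapped that of each organ. Whether other cell types played a part in the lower SLC1A3 of the cell lines was not tested. Among the tumors, the 16 macrophage markers had r with SLC1A3 of -0.42 to 0.17. Their median r was -0.24, against -0.07 over all probe sets.

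Against the organs, the cell lines lay near the range of the normal samples. Cell lines minus kidney was -0.55 ± 1.28 (SE, 95% interval -3.22 to 2.12), minus liver 0.80 ± 1.28 (-1.87 to 3.47) and minus lymph node 0.93 ± 1.28 (-1.73 to 3.60). These intervals are wide, and the direction of each turned when 1 cell line or 1 kidney sample was left out.

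**Figure D2:**
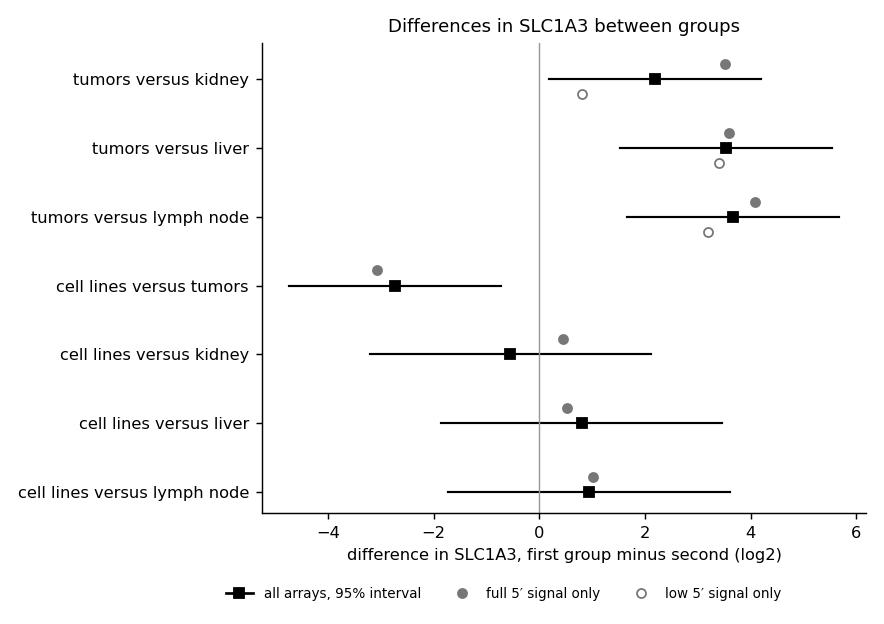
Difference in SLC1A3 between groups, first group minus second, on the log2 scale (horizontal axis). Squares with lines are the limma estimates from all arrays with 95% intervals, and grey and open circles are the estimates from arrays with full or with low 5′ signal alone. The estimates against liver and lymph node stay between 3.20 and 4.08 in both classes, while that against kidney is 3.52 with full and 0.80 with low 5′ signal.

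The other carriers of the SLC1 family were set beside SLC1A3. SLC1A1, SLC1A2, SLC1A4 and SLC1A6 were measured by probe sets with a single symbol. SLC1A1, the neuronal and epithelial glutamate transporter known for reabsorbing glutamate in the kidney, was 7.03 and 6.77 in the cell lines, 3.48 to 6.32 in the tumors with a median of 3.92, 11.2 and 11.3 in kidney, 10.3 and 7.90 in liver, and 3.62 and 3.64 in lymph node. It was therefore highest in kidney, and both cell lines lay above every tumor, as they did for 7.47% of all probe sets. Tumors minus kidney was -7.02 ± 0.59 (SE, limma adjusted p = 1.89e-08), tumors minus liver was -4.86 ± 0.59 (adjusted p = 3.21e-06) and cell lines minus tumors was 2.67 ± 0.59 (adjusted p = 0.00505). SLC1A1 was thus lower in tumors than in kidney and liver and higher in the cell lines than in the tumors. The call between cell lines and tumors ended with full 5′ arrays only (2.81, limma adjusted p = 0.0170). It also ended with array weights (2.53, limma adjusted p = 0.0284). Tumors minus liver was -3.82 among full 5′ arrays and -5.88 among low ones, each class holding 1 liver array.

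SLC1A2, the main glutamate transporter of astrocytes, was low in nearly all samples: 4.33 and 4.02 in the cell lines, 3.89 to 5.96 in the tumors and 3.95 to 4.81 in 5 of the 6 organ samples. Liver 1 stood apart at 9.26, against 4.81 in liver 2. Tumors were lower than liver by -2.61 ± 0.63 (SE, limma adjusted p = 0.00624), but by -0.38 (adjusted p = 0.804) without liver 1. A second probe set of the gene gave -0.79 (adjusted p = 0.00604), with 5.48 in liver 1 and 4.31 in liver 2. SLC1A4, a carrier of neutral amino acids, was 4.51 to 6.88 in tumors, and SLC1A6, known from cerebellar Purkinje cells, was 4.68 to 5.15. Neither of these genes passed in any comparison of tumors, cell lines and organs made here.

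**Figure D3:**
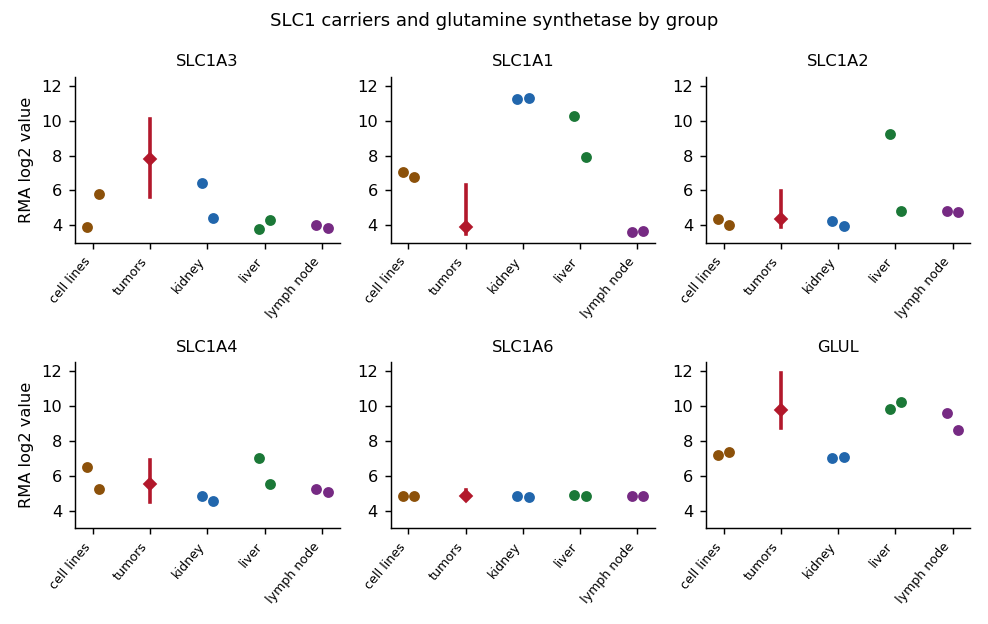
RMA log2 value (vertical axis) of SLC1A3, SLC1A1, SLC1A2, SLC1A4, SLC1A6 and GLUL by group; circles are single samples, and for the 15 tumors the line spans the lowest to the highest value with a diamond at the median. GLUL is higher in every tumor than in both cell lines, whereas for SLC1A3 cell line 2 (5.81) lies above the lowest tumor (5.60). SLC1A1 is highest in kidney and lowest in lymph node and most tumors. Levels compare samples within a panel, not genes between panels.

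Enzymes that make or use glutamate and aspartate were next. GLUL, glutamine synthetase, was 1 of 16 measured enzymes, and the only one, called between cell lines and tumors, a share near the 6.27% of all probe sets called there. It was 7.21 and 7.38 in the cell lines, 8.75 to 11.9 in the tumors with a median of 9.77, 6.99 and 7.08 in kidney, 9.83 and 10.3 in liver, and 9.62 and 8.64 in lymph node. Both cell lines lay below every tumor, as they did for 9.52% of all probe sets, and every tumor lay above both kidney samples, as was so for 4.69%. Cell lines minus tumors was -2.53 ± 0.55 (SE, limma adjusted p = 0.00412) and tumors minus kidney 2.79 ± 0.55 (adjusted p = 0.00119). A second GLUL probe set had the same signs but did not pass (-1.63, adjusted p = 0.430, and 2.37, adjusted p = 0.319).

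Against kidney, 1 of the 16 enzymes was higher in tumors and 5 were lower, where 7.26% of all probe sets passed in either direction and 5.26% were lower. The lower ones, named after their values were seen, were GOT1, the cytosolic aspartate aminotransferase (-1.54), ASS1 and ASL, enzymes of the urea cycle (-4.91 and -2.53), ABAT, which breaks down the transmitter GABA (-4.67), and GSS, glutathione synthetase (-2.49). Against liver, 1 was higher and 6 were lower, where 3.42% and 5.86% of all probe sets were. GFPT1, which uses glutamine to make hexosamines, was the higher one (2.15). GOT1, ASS1, ASL, ABAT and GSS were lower again, and with them GCLM, a subunit of the enzyme that starts glutathione synthesis (-2.58). Against lymph node 0 of 16 passed, where 4.24% of all probe sets did. ASS1 and ASL are known to be abundant in hepatocytes, for urea, and in kidney tubules, for arginine.

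Among 9 measured carriers of glutamate, glutamine and cystine outside the family, 2 were higher in cell lines than in tumors and 0 lower, where 3.77% and 2.50% of probe sets were. SLC25A11, the mitochondrial carrier that exchanges malate for oxoglutarate, was 8.63 and 9.05 in the cell lines and 6.56 to 7.98 in the tumors, a difference of 1.53 ± 0.30 (SE, limma adjusted p = 0.00193). SLC25A12, the mitochondrial carrier that exchanges aspartate for glutamate, was 7.63 and 7.89 in the cell lines and 5.39 to 7.04 in the tumors, a difference of 1.32 ± 0.29 (adjusted p = 0.0044). Both carriers serve the malate-aspartate shuttle. For each, both cell lines lay above every tumor, as they did for 7.47% of all probe sets. Of the 9 carriers, 1 was higher and 2 were lower in tumors than in kidney. There, 7.26% of all probe sets passed in either direction and 5.26% were lower. Against liver 0 were higher and 2 lower, where 3.42% and 5.86% of all probe sets were. Against lymph node 0 passed, where 4.24% of all probe sets did. Tumors had higher SLC38A2, a sodium-coupled carrier of neutral amino acids, than kidney (1.38). They had lower SLC3A1, a subunit of the cystine transporter of kidney tubules, and lower SLC38A3, a glutamine carrier, than both kidney (-6.35 and -1.41) and liver (-2.79 and -4.08).

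The 10 measured genes of the sodium and potassium gradient and of transporter partners included 1 that was higher and 1 that was lower in cell lines than in tumors, where 3.77% and 2.50% of all probe sets were. ATP1B1, a beta subunit of the sodium pump, was 10.3 and 9.07 in the cell lines and 5.49 to 8.18 in the tumors, a difference of 2.69 ± 0.57 (SE, limma adjusted p = 0.00363). FXYD1, phospholemman, a regulator of that pump, was 5.50 and 6.60 in the cell lines and 6.91 to 10.2 in the tumors, a difference of -2.28 ± 0.51 (adjusted p = 0.00553). FXYD1 was also higher in tumors than in kidney (2.44) and in lymph node (2.18), where 1.33% of all probe sets were higher, but not than in liver (-1.85, adjusted p = 0.0166), and its 2 other probe sets passed in none of these. Of the 10 genes, 2 were higher and 2 lower in tumors than in kidney. There, 7.26% of all probe sets passed in either direction and 5.26% were lower. Against liver 3 were higher and 0 lower, where 3.42% and 5.86% of all probe sets were. Tumors exceeded kidney and liver in ATP1B3, another beta subunit of the pump (2.33 and 2.82). They exceeded liver in EZR, a linker of membrane to actin (2.38), and in SEPTIN2, a cytoskeletal GTPase (1.31). Tumors were lower than kidney in ATP1B1 (-3.39) and in FXYD2, the pump subunit of kidney tubules (-5.59). Each of the 6 differences between cell lines and tumors called here (SLC1A1, GLUL, SLC25A11, SLC25A12, ATP1B1 and FXYD1) kept its direction but no longer passed 0.01 when either cell line was left out (limma adjusted p of 0.0157 to 0.159). Some calls of tumors against organs ended likewise. That of GLUL against kidney ended without kidney 1 (2.74, adjusted p = 0.0342) and without kidney 2 (2.84, adjusted p = 0.0228), and that of FXYD1 against kidney ended without kidney 1 (2.18, adjusted p = 0.0875) and without kidney 2 (2.69, adjusted p = 0.0205). ATP1B1 against kidney ended without kidney 2 (-2.55, adjusted p = 0.0375). FXYD1 against lymph node, close to the threshold, ended under most alternatives, among them without lymph node 1 (2.28, adjusted p = 0.0874), without lymph node 2 (2.07, adjusted p = 0.179) and with the organ replicate block (2.18, adjusted p = 0.0108).

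Of the 5 measured genes for glutamate receptors and their scaffolds, GRIN3A, GRINA, GRID1, GRM4 and GRM6, 0 passed in tumors against any organ or in cell lines against tumors. Of all probe sets, 7.26% passed against kidney, 9.28% against liver, 4.24% against lymph node and 6.27% between cell lines and tumors. For 5 genes, a count of 0 is near these shares.

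The wide spread of SLC1A3 among tumors allowed a search for genes that followed it. A limma fit of each of 23835 probe sets on the SLC1A3 value over the 15 tumors gave 0 probe sets (0.00%) at an adjusted p of 0.01 or 0.05. The lowest adjusted p was 0.892, and 1218 probe sets (5.11%) had an unadjusted p under 0.05. Pearson r ranged from -0.84 to 0.81 over these probe sets, with 5% under -0.48 and 5% over 0.41. The genes below are thus ends of a broad distribution, and are given as a description.

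**Figure D4:**
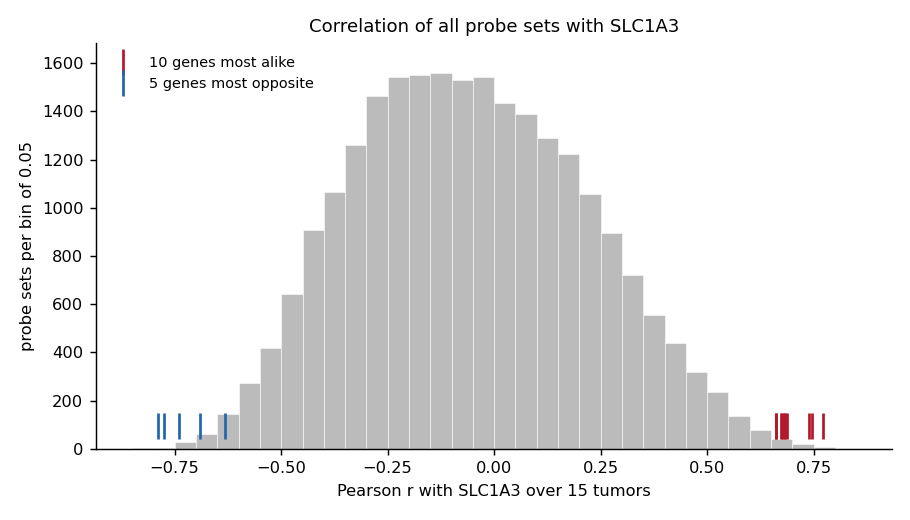
Number of probe sets (vertical axis) by Pearson r with SLC1A3 over the 15 tumors (horizontal axis, bins of 0.05), for 23835 probe sets. Red ticks mark the 10 named genes most alike (0.66 to 0.77) and blue ticks the 5 most opposite (-0.79 to -0.63), which lie at the tails.

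Among 2238 genes with tumor means above the median probe set and an SD of at least 0.5, the 10 most alike had r of 0.66 to 0.77 and rho of 0.60 to 0.78. Their unadjusted permutation p for r was 0.00078 to 0.00741, and the limma adjusted p over all probe sets was 0.892 for each. MAP2K6, a kinase that activates p38, was first with r = 0.77. It was 9.60 in tumor 3 and 8.15 in tumor 1, the tumors with the highest SLC1A3, and 5.98 in tumor 12 and 5.36 in tumor 8, which had the lowest. The other probe set of MAP2K6 had r = 0.75. SLC5A6, the sodium-dependent carrier of the vitamins biotin and pantothenate, followed with r = 0.75, and its other probe sets had r of 0.59 and 0.62.

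Of the remaining 8, PSMD14 (r = 0.74) and PSMD12 (0.68) encode subunits of the proteasome's regulatory particle, and UBE2V2 (0.68) a ubiquitin-conjugating enzyme variant. HGSNAT (0.69) is a lysosomal acetyltransferase of heparan sulfate breakdown. BCKDHB (0.67), MRPS15 (0.66) and NNT (0.66) serve mitochondria, as a subunit of branched-chain keto acid breakdown, a protein of the mitochondrial ribosome and the nicotinamide nucleotide transhydrogenase of the inner membrane. CCT8 (0.67) is a subunit of the CCT chaperonin. Other probe sets were less alike for CCT8 (0.02 and 0.31), NNT (0.34 and 0.19), HGSNAT (0.28) and MRPS15 (0.61, 0.37 and 0.52), and more alike for BCKDHB (0.77). Without tumors 3 and 12, the ends of the SLC1A3 range, r was 0.45 to 0.86 over the 10 genes. Within the classes it was 0.48 to 0.84 for full and 0.45 to 0.84 for low 5′ signal.

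The 5 most opposite genes had r of -0.79 to -0.63. APOL5 (-0.79) encodes an apolipoprotein L, and its other probe set had r = -0.59. SERPING1 (-0.78) encodes the C1 inhibitor of complement. It was 8.49 in tumor 3 and 8.30 in tumor 1, and 9.96 in tumor 12 and 9.69 in tumor 8, so the tumors highest in SLC1A3 were lowest in this gene. LTBP3 (-0.74), a protein that binds latent TGF-beta in the matrix, STAMBPL1 (-0.69), a deubiquitinase, and IL27RA (-0.63), a receptor chain for interleukin 27, completed the group. Their unadjusted permutation p was 0.00027 to 0.0138, and the limma adjusted p was 0.892. Within the classes r was -0.83 to -0.62 for full and -0.84 to -0.47 for low 5′ signal.

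**Figure D5:**
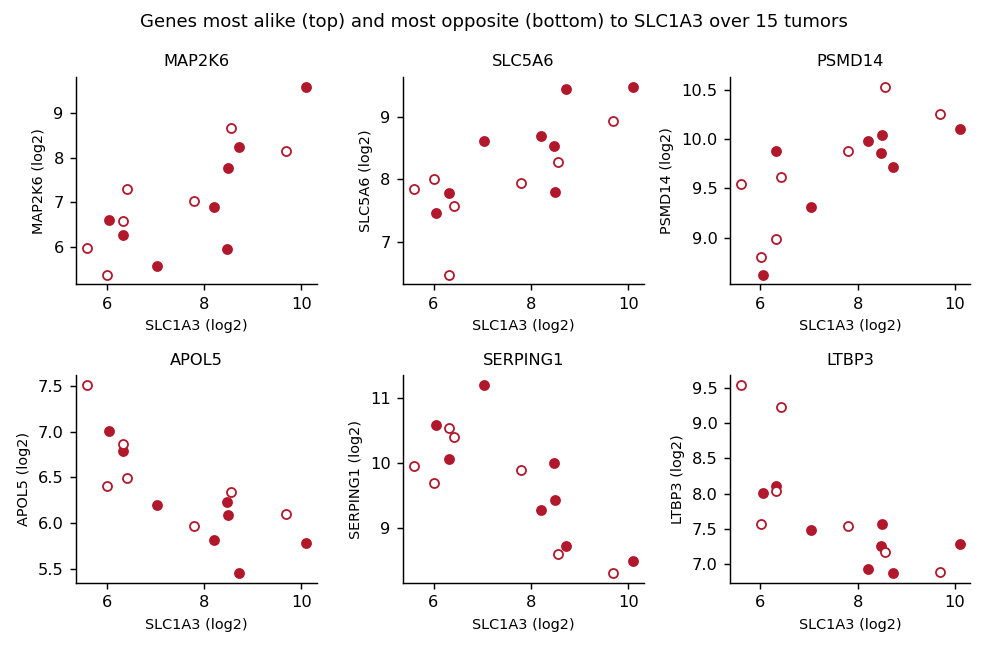
RMA log2 value of the 3 genes most alike to SLC1A3 (MAP2K6, SLC5A6, PSMD14, top row) and the 3 most opposite (APOL5, SERPING1, LTBP3, bottom row) against the SLC1A3 value in the 15 tumors; open points are tumors with low 5′ signal. MAP2K6 is highest in tumor 3 (9.60), and SERPING1 is lowest in tumor 1 (8.30), the 2 tumors at the right of each panel.

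Over all 23 samples, where differences between groups enter, genes alike were sought among the same 2238 genes. These had been kept for tumor means above the median probe set and an SD of at least 0.5 over the tumors. The most alike were EDNRA, the endothelin A receptor (r = 0.77), and DYNC1I1, a dynein chain (0.74). LETM2, a mitochondrial membrane protein (0.73), EPHA3, an ephrin receptor (0.71), and DSTN, an actin-severing protein (0.71), came next. Over the 15 tumors alone r was 0.51 for EDNRA, 0.36 for DYNC1I1, 0.30 for LETM2, 0.58 for EPHA3 and 0.08 for DSTN. EDNRA was 3.47 and 4.40 in the cell lines, 4.74 to 9.35 in the tumors and 4.14 to 4.64 in the 6 organ samples, and EPHA3 was 4.37 and 3.60 in the cell lines, 4.42 to 8.63 in the tumors and 3.89 to 4.77 in the organ samples. For EDNRA every tumor thus lay above every organ sample, as was so for 0.982% of all probe sets, and above both cell lines, whereas EPHA3 overlapped. Both genes were picked for following SLC1A3 over these 23 samples, among genes kept for high and variable values in the tumors. The share of all probe sets carries no such filter. Their pattern by group is therefore a description only.

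For lists of related genes the correlations over the tumors are a description too, since no probe set of any kind passed. The median r was 0.12 for 16 enzymes, 0.13 for 9 carriers, -0.02 for 5 receptor genes and -0.05 for 10 gradient and partner genes, against -0.07 for all probe sets. The highest single r in these lists was 0.54 for PSAT1, the serine pathway enzyme that uses glutamate as amino donor, and the lowest -0.56 for GRM4, a glutamate receptor. Of the lists for cell state, the 6 cell cycle genes had r of 0.14 to 0.43 with a median of 0.32. The 9 genes of hypoxia and stress had r of 0.05 to 0.45 with a median of 0.16. Osteoblast and osteocyte genes had a median of -0.19 (-0.38 to 0.21), and osteoclast genes -0.21 (-0.44 to 0.10).

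Genes that neighbour SLC1A3 on its chromosome were also examined, in the order given by the RefSeq table of assembly UU_Cfam_GSD_1.0. The nearest measured ones were NIPBL, CPLANE1 and NUP155 on one side and RANBP3L, AGXT2 and DNAJC21 on the other. Their r with SLC1A3 over the tumors was -0.16 to 0.31, highest for NUP155 and lowest for AGXT2. None of the 6 was higher in tumors than in any of the 3 organs at 0.01. AGXT2 was lower in tumors than in kidney (-3.85, limma adjusted p = 2.34e-17) and liver (-4.44, limma adjusted p = 5.92e-19). Of all probe sets, 3.42% were higher against liver and 1.33% against lymph node. Lower in tumors were 5.26% against kidney and 5.86% against liver, and 7.26% passed in either direction against kidney.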

How the data were processed

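Fragmented cRNA made from total RNA of 23 dog samples was hybridized to Affymetrix canine genome arrays, batched as 1 group per the study's methods. The authors summarized the probe signals by RMA, which corrects background, equalizes the arrays' distributions and combines the probes of a set, and deposited the log2 values (2.52 to 14.2, 0 missing). The submitters' processing notes name RMA and affy, and the versions are not given in the sources used here. Because RMA equalizes arrays, a change in total RNA per cell does not show, and differences between dim values are understated. Precision here rests on how many arrays a group has, since an array carries no count of reads.

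From the table of 23913 probe sets, 77 controls were removed. The platform annotation, which can be old, gave 1 symbol for 10549 of the rest, several for 138 and none for 13149. Genes were represented by the probe set with the highest mean over all samples. Sequences were not used here.

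Groups were taken from the submitted labels. Group contrasts were fitted by limma 3.58.1 under R 4.3.3 (lmFit, eBayes, two-sided, Benjamini-Hochberg over 23836 probe sets, threshold 0.01) in a model of 5 groups over all 23 samples. Tumors against all normal samples were fitted as 2 groups. Genes following SLC1A3 were sought by a slope on its value over the 15 tumors, and r and rho of named genes were given permutation p-values (100000 resamples, SciPy 1.17.1). The scripts were tested on simulated data. The 5′ index had its border at 1.5.

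Named genes were the SLC1 family, members of the glutamate and gradient lists past the threshold in cell lines against tumors or in tumors against all 3 organs in 1 direction, the 10 most alike, the 5 most opposite and the 5 most alike over all samples, and the 3 nearest measured genes on each side. Other list members, such as GOT1, ASS1, SLC38A2 and ATP1B3, fall outside this rule and were named after their values were seen. Their calls were not followed under the alternatives. The members and lists were chosen with earlier results of these data known. The threshold of 0.05 and the removal of tumors with bright Dap control RNA were alternatives added after seeing the data, and the closing section gives the alternatives that changed a call or a direction of SLC1A3.

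Organ samples with the same replicate number deviated together from their organ means (r of kidney with liver 0.607, kidney with lymph node 0.596, liver with lymph node 0.53). The fit was repeated with that number as a block. In each organ replicate 1 had low and replicate 2 full 5′ signal, so pairing and 5′ class cannot be told apart. Tumors 13 and 14 share the same SLC1A3 value. They had 68 probe sets with equal values, against a median of 74 and at most 119 over the 105 pairs of tumors, and were kept as separate samples.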

Additional observations from a re-analysis of the deposited data

Results flagged for a closer look

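Among the 6 organ samples, kidney 1 was far above the others for SLC1A3, at 6.40, with the next sample, kidney 2, at 4.41. Liver 1 was likewise far above the others for SLC1A2, at 9.26, with liver 2 next at 4.81. In each case the gap to the nearest sample was a larger part of the range (0.764 for SLC1A3 and 0.838 for SLC1A2) than Dixon's critical value of 0.625 for 6 samples. The 6 samples come from 3 organs, so a gap can be a gap between organs, and chance alone marks about 1 group in 20. Both samples had low 5′ signal, whose part in these values was not tested.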

How the results depend on the processing

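Tumors against liver passed 0.01 with the same difference of 3.53 when dim probe sets were left out (adjusted p = 0.00983), which leaves fewer probe sets to test, and without tumor 12 (3.67, adjusted p = 0.00939). Leaving out 1 sample at a time, that difference was 3.26 to 3.80 (adjusted p of 0.00939 to 0.181, highest without liver 1). At the threshold of 0.05, added after seeing the data, it passed (3.53), as did tumors against lymph node (3.67), but neither did without a sample of that organ, within a 5′ class or without Dap-bright tumors (3.23, adjusted p = 0.0591, against liver and 3.37, adjusted p = 0.0779, against lymph node). Fits of only the groups compared, with the 5′ index, median centring, trend and robust variance or array weights changed no call of SLC1A3 at 0.01. Cell lines minus kidney turned to 0.45 with full 5′ arrays only, and ran from -1.54 to 0.45 with 1 sample left out. With 1 sample left out, cell lines minus liver ran from -0.16 to 1.76 (below 0 without cell line 2), cell lines minus lymph node from -0.023 to 1.89 (below 0 without cell line 2), and lymph node minus liver from -0.40 to 0.13 (above 0 without liver 2). Lymph node minus liver was 0.21 with low 5′ arrays only. None of these passed, and the cause was not tested. Of the correlations, that of LETM2 was -0.058 without tumors 3 and 12, -0.087 with low 5′ tumors only and -0.11 to 0.40 with 1 tumor left out. That of DSTN was -0.18 with full 5′ tumors only, -0.032 without Dap-bright tumors and -0.077 to 0.29 with 1 tumor left out.

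With the organ replicate block, tumors minus liver stayed at 3.53 (adjusted p = 0.0166), and the block changed no call of SLC1A3. It ended that of FXYD1 in tumors against lymph node (2.18, adjusted p = 0.0108). Of the differences of the other genes named by the rule, 631 kept their side of the threshold under the alternatives, 107 no longer passed it and 0 turned. SLC1A3 has a single probe set, so no second one could be tried. Groups of 2 arrays limit every organ and cell line comparison.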
